A study of Mus musculus with 7 samples.

Results

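The 2 ends of the mouse tibialis anterior, the muscle at the front of the lower leg, were compared in muscles labelled WT, cut into serial cryosections that were sequenced 1 by 1. The tables of the 2 WT muscles held 146 section columns, and a section was kept when its total reached 1000 counts and 20% of the median of the sections in its muscle. That left 114 sections, 50 in WT replicate 1 and 64 in WT replicate 2. In the order of the section number in the column names, the first 20% of kept sections (10 and 12, called the first end) and the last 20% (10 and 12, the last end) of each muscle were summed, so 44 of the 525 section columns of the series enter the main comparison. Each muscle gave 1 sum per end, and the test compared the first with the last sums with the muscle as block.

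The series sequenced polyA RNA from sections of tibialis anterior in 7 muscles: 2 labelled WT, 2 labelled Ctr and 3 labelled DMD, where the series title names Duchenne muscular dystrophy. All samples share the tissue label, and the labels give no strain, age, sex or treatment and do not say that muscles came from separate animals. The file headers carry the word pax7 for WT, hDMD for Ctr and mdx for DMD. The labels do not explain pax7 or hDMD, and the WT annotation held an EGFP sequence. The 2 Ctr muscles serve here as other muscles in which the same ends were compared.

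A limb muscle is not uniform along its length. Fast glycolytic fibres, which express the type 2B myosin heavy chain gene Myh4, are set beside fatigue-resistant oxidative fibres, which express the type 2A gene Myh2, and the 2X gene Myh1 marks fibres between them. Tendon cells, rich in small leucine-rich proteoglycans and fibrillar collagen, lie where fibres attach, and nerves and vessels enter the belly at set places. In bulk sections a gene's level depends both on how many cells of a type a section holds and on how much RNA each one makes, and these cannot be told apart.

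The labels do not say which end is proximal, nor that the number in the column name is the place in the muscle. The numbers run in blocks of 12 and could also be positions of section barcodes. Within a muscle the number sets the order, so barcode number and place cannot be told apart there. Between the muscles, 7 numbers occur at the first end of both and 0 at the last end of both. Adjacent sections were more alike than distant ones. Over 2000 genes, the median correlation between neighbours was 0.115 in WT replicate 1 and 0.0569 in WT replicate 2. For pairs of sections at least 31 places apart in the order it was -0.0892 and -0.0552. Levels were centred gene by gene over the sections of a muscle, which lowers these correlations.

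The first-end sums held 3045875 and 2191117 counts in WT replicates 1 and 2, against 2224220 and 1614671 in the last-end sums. A first-end section had a median of 8044 and 5863 detected genes, against 6891 and 5303 at the last end. Mitochondrially encoded genes took 43.8% and 47.2% of counts at the first end, against 39.8% and 42.1% at the last. Spike-in sequences gave 47.6 and 15.7 counts at the first end, against 54.5 and 15.6 at the last, too few to scale by. All 8 core muscle genes of the tissue check, not all of them particular to fast fibres, were detected in every sum. They took 4.89% and 4.07% of counts at the first end and 5.86% and 5.41% at the last.

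The genes higher at the first end included 5 of 7 type 2A fibre genes tested, 5 of 16 fatty acid genes, 5 of 5 erythroid genes and 3 of 9 smooth muscle genes. Actc1, the cardiac alpha-actin gene, was 6.03-fold higher there. The genes lower at the first end included 4 of 6 tendon genes tested and 3 of 12 matrix genes, among them both type I collagen genes, and Chad, which encodes the matrix protein chondroadherin, was 10.1-fold higher at the last end. Of 5824 genes that passed the filter on low counts, 159 (2.73%) were called at an adjusted p below 0.05. A gene that reached this filter through 1 end alone had to differ, so counts of list members describe those that passed. At the first end, 92 genes (1.58%) were higher and 67 (1.15%) were lower. The size of the difference was moderate: 53 of the 159 genes differed at least 2-fold, and the median absolute log2 fold was 0.72.

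All 159 called genes had 1 sign in both WT muscles, and in 150 of them both first-end sums lay on 1 side of both last-end sums, against 36.5% of all genes tested. The likeness of the 2 muscles over all genes was low. Across the 5824 genes, which are not independent replicates, the first minus last log2 differences of WT replicate 1 and WT replicate 2 had Pearson r 0.21 and Spearman rho 0.15, and across the 2135 genes with at least 20 CPM (counts in every 1000000) they had r 0.48 and rho 0.34. Each gene had 1 residual degree of freedom, against 59.5 for the spread shared over genes. The calls rest mostly on that shared spread, so a gene's own match between the 2 muscles weighed little. When Ctr and DMD muscles were added to estimate the spread, 4 of 9716 genes (0.0412%) were called in WT (Actc1, Mss51, Tmem100 and Col1a1). Without WT replicate 1 the same fit called 1 gene, Actc1, and without WT replicate 2 it called 0 (411 genes at an unadjusted p below 0.05). When the sums were scaled by library totals alone, the median of all genes moved by -0.13 (log2), and 33 genes were called higher and 81 lower. Of the 67 called genes that the naming rule took or that were chosen after values were seen, 18 lost their call under that scaling. Among them were Casq2, Myl3, Ldhb, Mylk, Mbp, Ibsp, Sspn, Hspb1 and Nmrk2. Called genes given only as further members of a list (Myoz2, Actn3, Mybpc2, Myl1 and Pvalb) are outside these 67 and their lost calls are not counted.

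**Figure D1:**
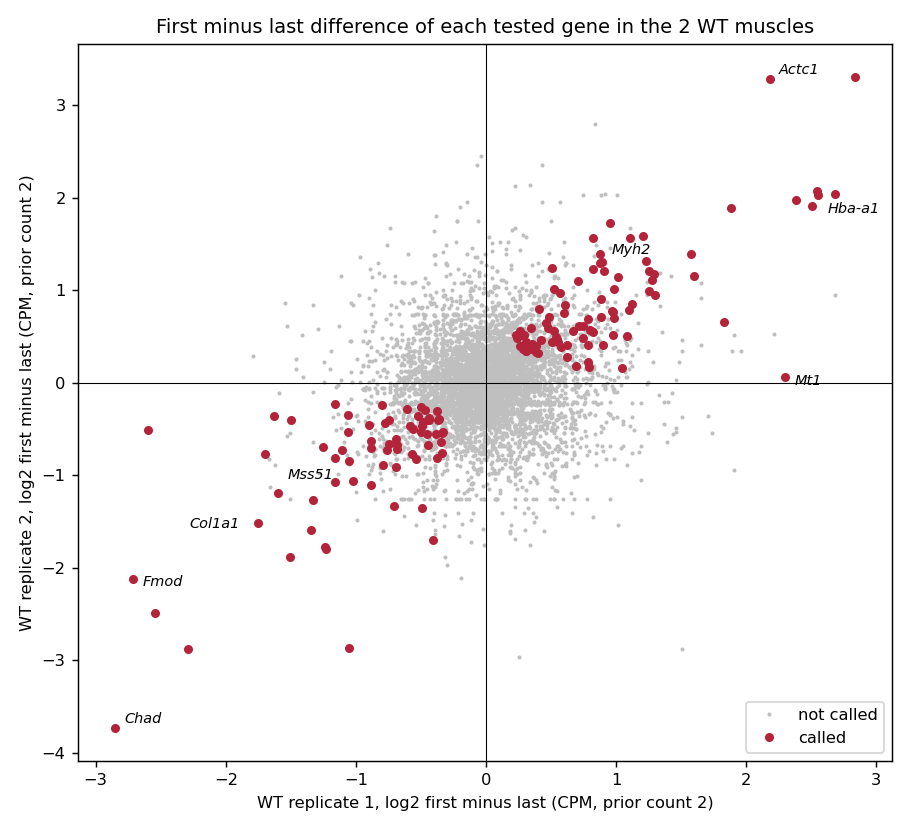
First minus last log2 difference of each of the 5824 tested genes, WT replicate 1 on the horizontal axis and WT replicate 2 on the vertical axis, with the 159 called genes in red. The called genes lie in the upper right and lower left quadrants, and Mt1 lies close to 0 in WT replicate 2.

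Most oxidative fibre genes tested were higher at the first end and most type 2B fibre genes at the last. Of the 7 tested type 2A and oxidative fibre genes, 5 rose at the first end and none was called lower, with a median log2 fold of 1.03, beside 0.00 over all genes tested. In both muscles 6 of the 7 were higher at the first end and 1 was lower, not called. The summed level of the 7 went the other way, with 11684 and 12901 CPM at the first end against 13631 and 13368 CPM at the last. Of 12 tested members of the 13-gene type 2B and 2X list, 7 fell and 1, Myh1, rose, with a median of -0.39. The slow fibre list gave 2 higher members of 6 tested out of 10, and the slow myosin gene Myh7 did not pass the filter on low counts.

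Actc1 (chr2:114047282-114053548, minus strand, GRCm38) encodes the actin of heart and fetal skeletal muscle. Its level was 159 and 154 CPM, scaled by TMM factors as are all CPM of sums given here, at the first end of WT replicates 1 and 2, against 34.3 and 15 CPM at the last end. The first-end sums were high in both muscles and the ends did not overlap, with a log2 fold of 2.59 ± 0.17 (approximate standard error, adjusted p = 4.65e-19). The log2 difference was 2.18 within WT replicate 1 and 3.28 within WT replicate 2, and in the fit over 7 muscles the log2 fold of Actc1 was 3.36 without WT replicate 1 and 2.20 without WT replicate 2, where the call was lost (adjusted p = 0.173). Unscaled, single sections ranged from 12.4 to 249 CPM (median 149) at the first end of WT replicate 1. They ranged from 62.8 to 229 CPM (median 134) at that of WT replicate 2. At the last end they ranged from 12.6 to 58.4 CPM (median 34.5) in WT replicate 1, and from 0 to 33.1 CPM (median 16.1) in WT replicate 2. Kept sections were also divided in order into 5 nearly equal stretches, whose levels here are scaled by the TMM factors of a fit over all 5. From the first end to the last, the level was 158, 201, 104, 78.4 and 34.1 CPM in WT replicate 1. In WT replicate 2 it was 151, 118, 41.6, 18.7 and 15 CPM. The highest stretch was therefore the second in WT replicate 1 and the first in WT replicate 2.

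Myh2 (chr11:67171027-67197517), the type 2A myosin heavy chain gene, had 186 and 202 CPM at the first end, against 99.6 and 80.8 CPM at the last. Both first sums lay above both last sums, and the log2 fold was 1.08 ± 0.13 (adjusted p = 2.54e-09). Myh1 (chr11:67200052-67224575), the 2X gene, had 1135 and 1054 CPM at the first end against 735 and 872 CPM at the last, a log2 fold of 0.46 ± 0.10 (adjusted p = 0.00192), and its call was lost under scaling by library totals. Myh4 (chr11:67238029-67260446), the 2B gene, had 6876 and 6462 CPM at the first end against 9373 and 10288 CPM at the last. It was lower at the first end in both muscles, with a log2 fold of -0.56 ± 0.10 (adjusted p = 3.39e-05). Myh4 increased at each step over the 5 stretches of both muscles, whereas Myh2 was lowest in the last stretch, with no steady order before it.

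The 3 adult fast myosin genes lie side by side on chromosome 11, and Myh2 and Myh1 were higher at 1 end while Myh4 was higher at the other. Their promoters are shown with those of Actc1 and Chad, which had the largest folds at the first and the last end among called genes averaging at least 20 CPM under the naming rule, because they let the start regions of genes that move in opposite directions be read side by side. The sequences are from RefSeq (GRCm38.p6), 250 bases before to 50 bases after the annotated start, 5′ to 3′ on the gene's strand, with the TATA box letters TATAAA in capitals on either strand (TTTATA is the other strand). Myh2 is at chr11:67170777-67171076, plus strand. Myh1 is at chr11:67199852-67200151, plus strand. Myh4 is at chr11:67237562-67237861, plus strand. Actc1 is at chr2:114052826-114053125, minus strand. Chad is at chr11:94564797-94565096, plus strand.
Myh2: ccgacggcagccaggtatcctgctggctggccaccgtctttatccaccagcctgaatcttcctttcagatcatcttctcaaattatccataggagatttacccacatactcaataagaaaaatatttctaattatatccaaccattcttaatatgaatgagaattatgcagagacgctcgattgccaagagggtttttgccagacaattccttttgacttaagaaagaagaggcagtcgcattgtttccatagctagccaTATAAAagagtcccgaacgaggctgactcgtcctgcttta
Myh1: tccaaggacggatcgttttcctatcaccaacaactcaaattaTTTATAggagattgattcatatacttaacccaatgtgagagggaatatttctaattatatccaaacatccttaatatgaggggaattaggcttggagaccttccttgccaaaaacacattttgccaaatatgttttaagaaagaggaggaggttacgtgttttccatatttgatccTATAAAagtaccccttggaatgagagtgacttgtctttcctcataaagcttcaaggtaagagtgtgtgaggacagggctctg
Myh4: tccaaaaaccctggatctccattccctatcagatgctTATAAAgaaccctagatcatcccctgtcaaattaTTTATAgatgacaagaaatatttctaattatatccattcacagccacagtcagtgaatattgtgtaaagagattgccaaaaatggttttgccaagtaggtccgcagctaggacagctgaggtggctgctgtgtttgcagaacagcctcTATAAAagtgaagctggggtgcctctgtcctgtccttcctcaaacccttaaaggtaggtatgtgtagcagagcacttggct
Actc1: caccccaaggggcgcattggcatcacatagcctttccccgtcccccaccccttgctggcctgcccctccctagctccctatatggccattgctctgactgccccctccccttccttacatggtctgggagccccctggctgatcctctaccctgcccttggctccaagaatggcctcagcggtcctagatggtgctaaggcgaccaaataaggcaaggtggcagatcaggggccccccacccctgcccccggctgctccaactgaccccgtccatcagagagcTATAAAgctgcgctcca
Chad: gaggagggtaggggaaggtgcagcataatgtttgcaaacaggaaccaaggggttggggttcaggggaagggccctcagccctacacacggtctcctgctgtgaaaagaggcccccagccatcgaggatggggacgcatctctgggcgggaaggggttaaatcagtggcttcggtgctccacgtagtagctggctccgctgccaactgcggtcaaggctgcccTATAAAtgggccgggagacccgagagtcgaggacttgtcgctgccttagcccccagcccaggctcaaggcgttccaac

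TATAAA occurred 1 time in the windows of Myh2, Actc1 and Chad, 2 times in that of Myh1 and 3 times in that of Myh4. The match nearest the annotated start began 32 bases before it in Myh1, 31 in Myh4 and 28 in Chad, and 10 bases after it in Myh2 and 33 bases after it in Actc1. Genes of both directions thus carried the same letters, which 13.6% of 32851 RefSeq promoter windows of the same length hold. A match is a description of the letters, and binding was not measured.

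Other oxidative fibre genes were also higher at the first end. Csrp3, which encodes the Z-disc muscle LIM protein, had 151 and 199 CPM at the first end against 41.7 and 126 CPM at the last, a log2 fold of 1.20 ± 0.15 (adjusted p = 1.63e-08). The log2 difference of Csrp3 was 1.83 within WT replicate 1 and 0.65 within WT replicate 2, and in the fit over 7 muscles the log2 fold of Csrp3 was 0.67 without WT replicate 1 and 1.84 without WT replicate 2. Its call was lost with DESeq2 (adjusted p = 0.138) and without the replicate block (adjusted p = 0.0532). The ends of Csrp3 did not overlap, but within WT replicate 2 the highest stretch was the middle one (297 CPM). Ankrd2, a stretch-responsive ankyrin repeat gene, had 32.8 and 53.7 CPM at the first end against 18.2 and 17.5 CPM at the last, a log2 fold of 1.19 ± 0.21 (adjusted p = 7.30e-05). Both muscles had higher Ankrd2 at the first end, without overlap. Myoz2, which encodes the Z-disc protein calsarcin-1, had a log2 fold of 1.03 (adjusted p = 0.000248). Casq2, the slow and cardiac calsequestrin gene, had 18.0 and 21.0 CPM at the first end against 8.68 and 10.02 CPM at the last, a log2 fold of 1.06 ± 0.27 (adjusted p = 0.0154). Its fast counterpart Casq1 had 1556 and 1674 CPM at the first end against 2335 and 2311 CPM at the last, a log2 fold of -0.53 ± 0.09 (adjusted p = 8.16e-05). The pair of calsequestrin genes therefore differed in opposite directions, without overlap of the ends. Myl2, the slow regulatory light chain gene, had 7.07 and 2.10 CPM at the first end against 5.78 and 22.5 CPM at the last, with signs that differed between the muscles, and did not pass (log2 fold -1.24 ± 0.40, adjusted p = 0.0881).

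The lower members of the type 2B and 2X list were Mylk4, Myh4, Casq1, Actn3, Mybpc2, Myl1 and Pvalb. Actn3, the fast-fibre alpha-actinin gene, had a log2 fold of -0.46 (adjusted p = 0.00110), Mybpc2, fast myosin-binding protein C, -0.42 (adjusted p = 0.00355), and Pvalb, the calcium buffer parvalbumin, -0.38 (adjusted p = 0.0123). Tnni2, fast troponin I, had 5201 and 5864 CPM at the first end against 6325 and 6367 CPM at the last and did not pass (log2 fold -0.20 ± 0.09, adjusted p = 0.360). Scaled by library totals alone, 10 of the 12 were lower and Myh1 was no longer called.

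**Figure D2:**
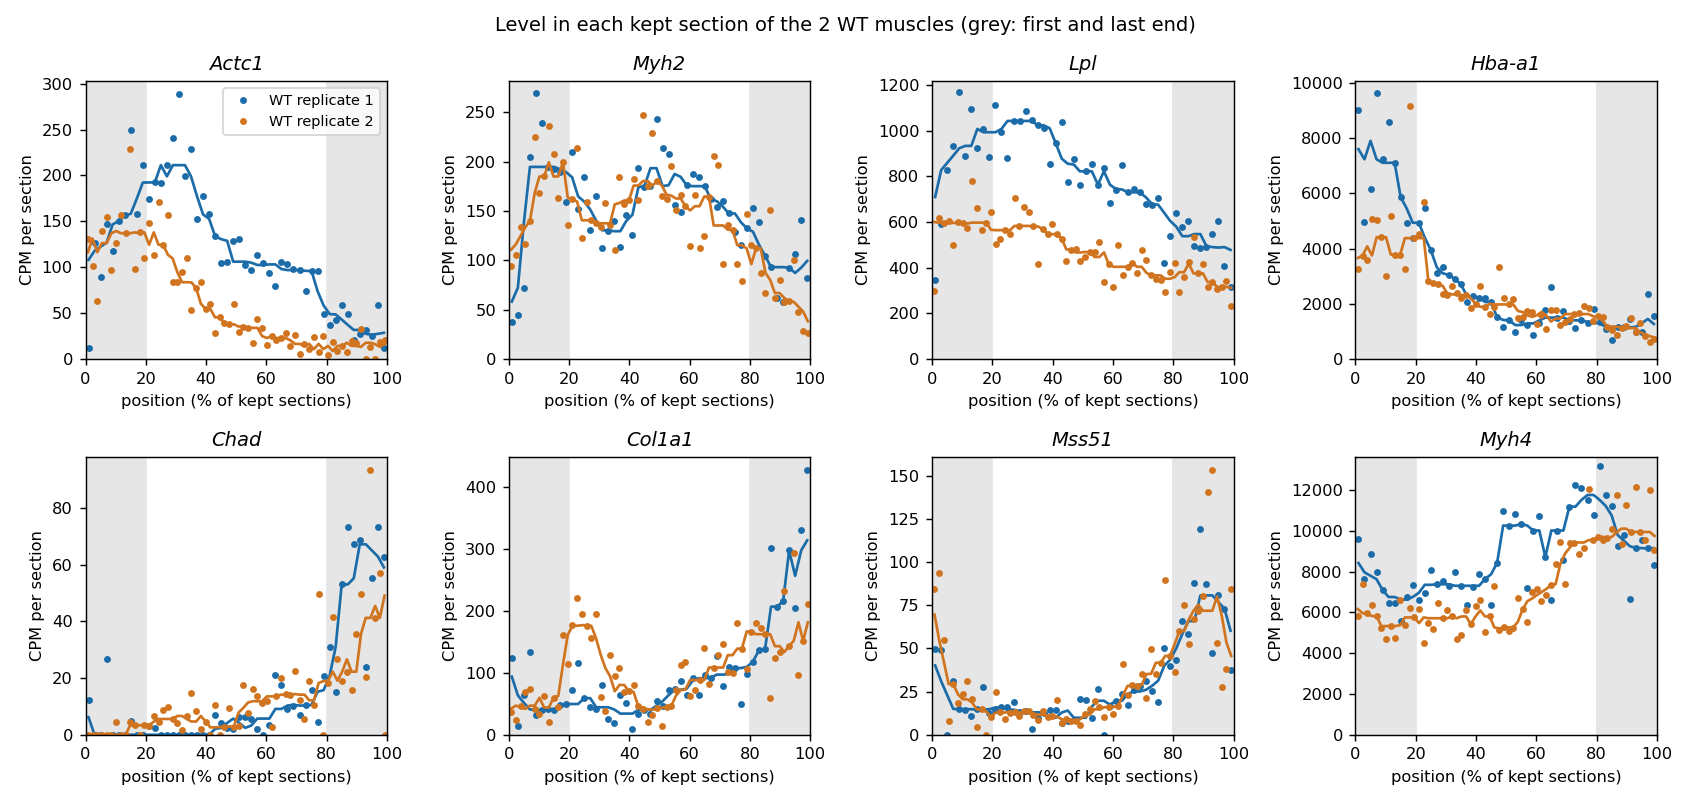
Unscaled CPM of 8 genes in every kept section of the 2 WT muscles, by position in percent of kept sections, with the first and last end in grey; points are sections and lines are running medians over 7 sections. Actc1, Lpl and Hba-a1 are high on the left and Chad, Col1a1, Mss51 and Myh4 on the right, while Col1a1 has a second rise near the first end of WT replicate 2 and Mss51 is also high in the outermost first sections.

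Genes of fatty acid use were higher at the first end. All 16 fatty acid uptake and oxidation genes were tested, 5 rose at the first end and none fell, with a median log2 fold of 0.46. Lpl, the lipase that frees fatty acids from circulating lipoproteins, had 926 and 693 CPM at the first end against 501 and 371 CPM at the last. Both first sums exceeded both last sums, with a log2 fold of 0.89 ± 0.10 (adjusted p = 4.15e-10). Fabp3, the muscle fatty acid binding protein, had 298 and 426 CPM at the first end against 195 and 238 CPM at the last, a log2 fold of 0.72 ± 0.11 (adjusted p = 1.51e-06). Cd36, a fatty acid transporter, had 88.7 and 86.8 CPM against 52.5 and 56.4 CPM at the last end, a log2 fold of 0.70 ± 0.15 (adjusted p = 0.00185). Acadl and Hadhb, enzymes of mitochondrial beta-oxidation, were the other called members, at log2 folds of 0.61 ± 0.12 and 0.57 ± 0.16. The calls of Cd36, Acadl and Hadhb were lost under scaling by library totals.

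Respiratory chain genes differed by less. Of 19 nuclear oxidative phosphorylation genes, 3 (Sdhb, Ndufb8 and Atp5g1) rose at the first end and none fell, with a median log2 fold of 0.21. Sdhb, a subunit of succinate dehydrogenase, had 391 and 418 CPM at the first end against 319 and 292 CPM at the last, a log2 fold of 0.40 ± 0.10 (adjusted p = 0.0172). Of the 13 mitochondrially encoded genes, mt-Co2 and mt-Nd3 rose, with a list median of 0.28. The calls of Sdhb, Ndufb8, Atp5g1, mt-Co2 and mt-Nd3 were all lost under scaling by library totals, and mitochondrial genes share reads with nuclear copies, so their values are less certain.

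Myoglobin and the creatine kinase of mitochondria were also higher. Mb, the oxygen-binding myoglobin gene, had 2408 and 2524 CPM at the first end against 1895 and 1678 CPM at the last, a log2 fold of 0.47 ± 0.10 (adjusted p = 0.000856). Ckmt2, mitochondrial creatine kinase, had 1022 and 1105 CPM at the first end against 674 and 658 CPM at the last, a log2 fold of 0.67 ± 0.10 (adjusted p = 7.10e-07). Ldhb, the lactate dehydrogenase subunit of oxidative tissue, had 45.0 and 49.5 CPM against 27.3 and 22.5 CPM at the last end, a log2 fold of 0.89 ± 0.19 (adjusted p = 0.00185). None of these 3 genes had overlapping ends.

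Genes of glycogen use were lower at the first end. Of 19 glycolysis and glycogen genes, 3 fell at the first end and none rose, with a median log2 fold of -0.24, and 8 of 19 were lower under scaling by library totals. The 3 were Phka1, the muscle regulatory subunit of phosphorylase kinase, Pygm, muscle glycogen phosphorylase, and Pgm1, phosphoglucomutase. Pygm had 2264 and 2154 CPM at the first end against 2919 and 2845 CPM at the last, a log2 fold of -0.38 ± 0.09 (adjusted p = 0.00839). Phka1 had a log2 fold of -0.48 ± 0.11 (adjusted p = 0.00355) and Pgm1 of -0.42 ± 0.10 (adjusted p = 0.00413). Ldha, the glycolytic lactate dehydrogenase subunit, had a log2 fold of -0.30 and did not pass (adjusted p = 0.0737).

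Several membrane and polyamine genes, chosen after their values were seen, also differed. Atp1b1 and Atp1b2 encode alternative beta subunits of the sodium pump. Atp1b1 had 210 and 263 CPM at the first end against 113 and 160 CPM at the last (log2 fold 0.81 ± 0.12, adjusted p = 5.93e-07), and Atp1b2 had 79.1 and 72.1 CPM against 118 and 124 CPM at the last (log2 fold -0.66 ± 0.14, adjusted p = 0.000861). The polyamine synthesis gene Amd1 had 217 and 162 CPM at the first end against 366 and 257 CPM at the last, a log2 fold of -0.71 ± 0.11 (adjusted p = 2.54e-06). Its near-identical copy Amd2 had a log2 fold of -0.66 ± 0.11, and the counting divides shared reads between the copies, so the 2 are not independent. Smox, spermine oxidase, had 86.1 and 48.4 CPM at the first end against 145 and 64.5 CPM at the last, lower within each muscle although the ends overlap between muscles (log2 fold -0.64 ± 0.14, adjusted p = 0.00344).

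Tendon genes marked the last end. Of the 14 tendon genes, 6 passed the filter on low counts, all 6 were lower at the first end of both muscles, and 4 were called (Chad, Cilp2, Fmod and Thbs4). The median log2 fold of the 6 was -1.98, and genes that reach the filter through 1 end alone had to differ, so the count describes those that passed. The summed level of the 6 was 75.9 and 119 CPM at the first end against 208 and 257 CPM at the last. Chad (chr11:94565047-94569127) had 5.14 and 1.58 CPM at the first end against 42.6 and 31.9 CPM at the last, a log2 fold of -3.34 ± 0.29 (adjusted p = 4.77e-14). The log2 fold of Chad was -2.75 with ends of 10% of the sections, -4.94 without sections rich in the bone gene Ibsp (chosen after seeing the data) and, in the fit over 7 muscles without WT replicate 1, -4.31, where it was not called. At the first end, 7 of 10 sections of WT replicate 1 and 9 of 12 of WT replicate 2 had 0 Chad counts, against 0 of 10 and 1 of 12 at the last. Fmod, the collagen-binding fibromodulin gene, had 3.86 and 7.37 CPM at the first end against 30.2 and 35.1 CPM at the last, a log2 fold of -2.61 ± 0.28 (adjusted p = 8.76e-11) that was -2.02 with ends of 10%. Thbs4, a thrombospondin of tendon and muscle matrix, had 60.4 and 100 CPM at the first end against 112 and 163 CPM at the last, a log2 fold of -0.80 ± 0.13 (adjusted p = 2.09e-05). Tnmd, tenomodulin, a defining tendon gene, had a log2 fold of -0.90 and did not pass (adjusted p = 0.286). The defining regulators Scx and Mkx did not pass the filter.

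Type I collagen was higher at the last end as well. Of 12 tested genes on the 16-gene matrix list, 3 fell at the first end and none rose. Col1a1 (chr11:94936224-94953042) had 56.9 and 55.2 CPM at the first end against 194 and 160 CPM at the last, a log2 fold of -1.67 ± 0.14 (adjusted p = 3.43e-15). Its partner chain gene Col1a2 had 61.4 and 80.5 CPM against 138 and 142 CPM at the last end (log2 fold -1.01 ± 0.14, adjusted p = 1.23e-07), and Sparc, a collagen-binding glycoprotein, was called at -0.52 ± 0.12. Col3a1, the type III collagen gene, had a log2 fold of -0.05 and did not pass (adjusted p = 0.970). Of the 11 tested fibro-adipogenic progenitor genes of 14, Gsn and Dcn fell and 9 did not pass. Gsn, the actin-severing gelsolin, had 274 and 338 CPM at the first end against 504 and 524 CPM at the last, a log2 fold of -0.76 ± 0.10 (adjusted p = 1.28e-07). Tendon genes moved with type I collagen, at the summed levels given above, and their part in its difference was not tested.

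Col1a1 was not a simple slope. In WT replicate 2 its level was 54.5, 134, 63.4, 124 and 160 CPM over the 5 stretches. The rise in the second stretch was lacking in WT replicate 1 (54.5 CPM there). The bone gene Ibsp, which encodes bone sialoprotein, was high in the same place: 36.2 CPM in the second stretch of WT replicate 2, against 0.35 CPM in that of WT replicate 1. Ibsp was the only 1 of 13 bone, cartilage and skin genes that passed the filter, with 4.82 and 7.89 CPM at the first end against 0 and 1.25 CPM at the last (0 and 2 counts). Ibsp reached the filter through the first end alone, so it had to differ. Leaving out end sections with at least 20 CPM of Ibsp, an alternative chosen after seeing the data, removed 2 first sections of each muscle and 1 last section of WT replicate 2, and 68 genes were then called. Col1a1 was called in that setting too. When an end held 25% of the sections, the log2 fold of Col1a1 was -0.98.

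Erythroid genes had the highest median of the lists with at least 4 tested members. All 5 erythroid genes that passed, of 6 listed, rose at the first end, with a median log2 fold of 2.21, and this list holds genes of red blood cells and their precursors. Hba-a1 (chr11:32283511-32284465) had 6563 and 4731 CPM at the first end against 1116 and 1156 CPM at the last, a log2 fold of 2.30 ± 0.10 (adjusted p = 1.07e-26). In the fit over 7 muscles the log2 fold of Hba-a1 was 2.29 ± 0.55, and it was not called. Unscaled, sections ranged from 4404 to 9624 CPM (median 6645) and from 3020 to 9157 CPM (median 3784) at the first ends. At the last they ranged from 690 to 2372 CPM (median 1157) and from 608 to 1519 CPM (median 1084). No section of the last end of a muscle reached the lowest of its first end. Over the 5 stretches the TMM-scaled level, a different measure from that of single sections, was 6521, 3245, 1416, 1439 and 1111 CPM in WT replicate 1. In WT replicate 2 it was 4664, 3206, 2197, 1627 and 1155 CPM. Hbb-bs had 1300 and 1339 CPM at the first end against 228 and 356 CPM at the last (log2 fold 2.21 ± 0.11). Alas2, which starts haem synthesis in erythroid cells, had 11.6 and 16.3 CPM at the first end against 2.48 and 3.76 CPM at the last (log2 fold 2.15 ± 0.39, adjusted p = 0.000110). Alas2 reached the filter on low counts through the first end alone, so its rise there was given by the filter. Haemoglobin genes are near-identical copies in pairs, so the division between Hba-a1 and Hba-a2, and between Hbb-bs and Hbb-bt, is uncertain. Without these 4 genes and Alas2, an alternative chosen after seeing the data, 157 genes were called.

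Of 9 tested pericyte and smooth muscle genes of 12, Acta2, Myh11 and Mylk rose and none fell. Acta2, smooth muscle alpha-actin, had 330 and 744 CPM at the first end against 186 and 317 CPM at the last, a log2 fold of 1.04 ± 0.11 (adjusted p = 4.90e-11). Myh11, smooth muscle myosin, had 21.2 and 42.6 CPM at the first end against 11.2 and 16.9 CPM at the last, a log2 fold of 1.14 ± 0.23 (adjusted p = 0.000856). Tagln, Myl9 and Des, also on the list, did not pass, at log2 folds of 1.30 (adjusted p = 0.186), 0.68 (adjusted p = 0.397) and -0.01 (adjusted p = 0.991). The pericyte genes Rgs5, Kcnj8 and Abcc9 did not pass, at log2 folds of 0.02, 0.05 and -0.34. None of the 14 endothelial genes passed, and the difference between the 2 lists was not tested. The endothelial list had a median log2 fold of 0.10 that turned to -0.03 under scaling by library totals. Kdr, the main receptor for vascular endothelial growth factor, had 247 and 234 CPM at the first end against 195 and 189 CPM at the last (log2 fold 0.33 ± 0.11, adjusted p = 0.104). None of 8 arterial endothelium genes reached the filter on low counts.

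Of 3 tested myelin and Schwann cell genes of 15, 1 rose at the first end. The 3 needed the first end to reach the filter on low counts, so the count describes those that passed. Mbp, myelin basic protein, had 14.5 and 11 CPM at the first end against 5.37 and 4.38 CPM at the last, a log2 fold of 1.39 ± 0.35 (adjusted p = 0.0119). The log2 fold of Mbp was 2.16 with ends of 25% of the sections and 2.00 with sections of at least 50% of the median total. Its level was 14.4, 47.7, 20.7, 10.1 and 5.34 CPM over the stretches of WT replicate 1. Over those of WT replicate 2 it was 10.9, 32.5, 21.8, 13.1 and 4.38 CPM, so the second stretch was the highest in both. The peak section was the 13th of 50 and the 16th of 64. Cnp, also a myelin gene, had 5.46 and 7.89 CPM at the first end against 2.48 and 1.25 CPM at the last and did not pass (log2 fold 1.67 ± 0.56, adjusted p = 0.103). None of the 4 tested neuromuscular synapse genes and none of the 4 tested myotendinous junction genes was called.

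Some genes of the last end belong to none of these groups. Mss51, a mitochondria-associated gene of fast muscle, had 20.6 and 32.6 CPM at the first end against 64.0 and 75.8 CPM at the last, a log2 fold of -1.44 ± 0.18 (adjusted p = 1.12e-08). It followed no simple slope, with 20.4, 13, 10.7, 23.9 and 63.7 CPM over the stretches of WT replicate 1 and 32.2, 14.9, 13.9, 35.9 and 75.7 CPM over those of WT replicate 2, so the middle stretch was the lowest in both. Tmem100, a membrane protein gene, had 51.7 and 42.6 CPM at the first end against 131 and 104 CPM at the last, a log2 fold of -1.32 ± 0.15 (adjusted p = 4.00e-10). Car3, carbonic anhydrase 3, a gene abundant in fat and muscle, had 1615 and 1795 CPM at the first end against 3347 and 3234 CPM at the last. Both last sums were higher, with a log2 fold of -0.95 ± 0.10 (adjusted p = 1.22e-11). Car3 is also on the adipocyte list, of which the other 3 tested members did not pass, and the defining adipocyte gene Adipoq was not among the tested members. Ttll7, a tubulin-modifying enzyme gene, Cbr2, a carbonyl reductase gene, Ctxn3, Timp2, an inhibitor of matrix proteases, and Mllt11 had log2 folds between -1.06 and -0.79. Sbk2, a kinase gene chosen after its values were seen, had 712 and 432 CPM at the first end against 1206 and 720 CPM at the last (log2 fold -0.75 ± 0.10, adjusted p = 5.68e-08).

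At the first end, H19, an imprinted long noncoding RNA gene that overlaps Mir675, had 842 and 751 CPM against 449 and 324 CPM at the last end, a log2 fold of 1.05 ± 0.10 (adjusted p = 4.86e-12). Cilp, a matrix gene named for cartilage, had 101.6 and 125 CPM at the first end against 41.3 and 57.6 CPM at the last, a log2 fold of 1.21 ± 0.15 (adjusted p = 1.08e-08). Cilp and its relative Cilp2 therefore differed in opposite directions. Nmrk2, a nicotinamide riboside kinase gene of muscle, had 40.2 and 31 CPM at the first end against 19.8 and 18.8 CPM at the last (log2 fold 0.90 ± 0.21, adjusted p = 0.00428). Cryab and Hspb1, small heat shock genes, were the 2 called of 6 tested heat shock genes, at log2 folds of 0.62 ± 0.10 and 0.50 ± 0.14.

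Mt1, a metal-binding metallothionein gene, shows the limit of 2 muscles. It had 99.3 and 16.3 CPM at the first end against 19.4 and 15.7 CPM at the last. WT replicate 1 alone was high at its first end, the ends overlapped, and the gene was nevertheless called (log2 fold 1.77 ± 0.24, adjusted p = 1.10e-07). Without WT replicate 1 the log2 fold of Mt1 was 0.07.

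Other lists showed few or no called members. None of 16 cytosolic ribosomal protein genes (median log2 fold 0.00), 10 tested calcium release and storage genes, 7 tested circadian clock genes and 7 tested macrophage genes was called. The calcium release channel gene Ryr1 had 383 and 296 CPM at the first end against 367 and 391 CPM at the last (log2 fold -0.15 ± 0.11, adjusted p = 0.630). Of 10 tested dystrophin complex genes, Sspn, sarcospan, rose (19.6 and 17.9 CPM at the first end against 8.68 and 10.02 CPM at the last, log2 fold 1.03 ± 0.27, adjusted p = 0.0202). Dmd, the dystrophin gene, had 10.9 and 13.2 CPM at the first end against 17.4 and 13.8 CPM at the last and did not pass (log2 fold -0.43 ± 0.27, adjusted p = 0.567). None of the 12 lymphocyte and granulocyte genes reached the filter. The limb position factors, satellite cell, regenerating fibre and immediate early lists had 2 tested members each, with none called, and the atrophy and denervation list had Mt1 as its 1 called member of 8.

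**Figure D3:**
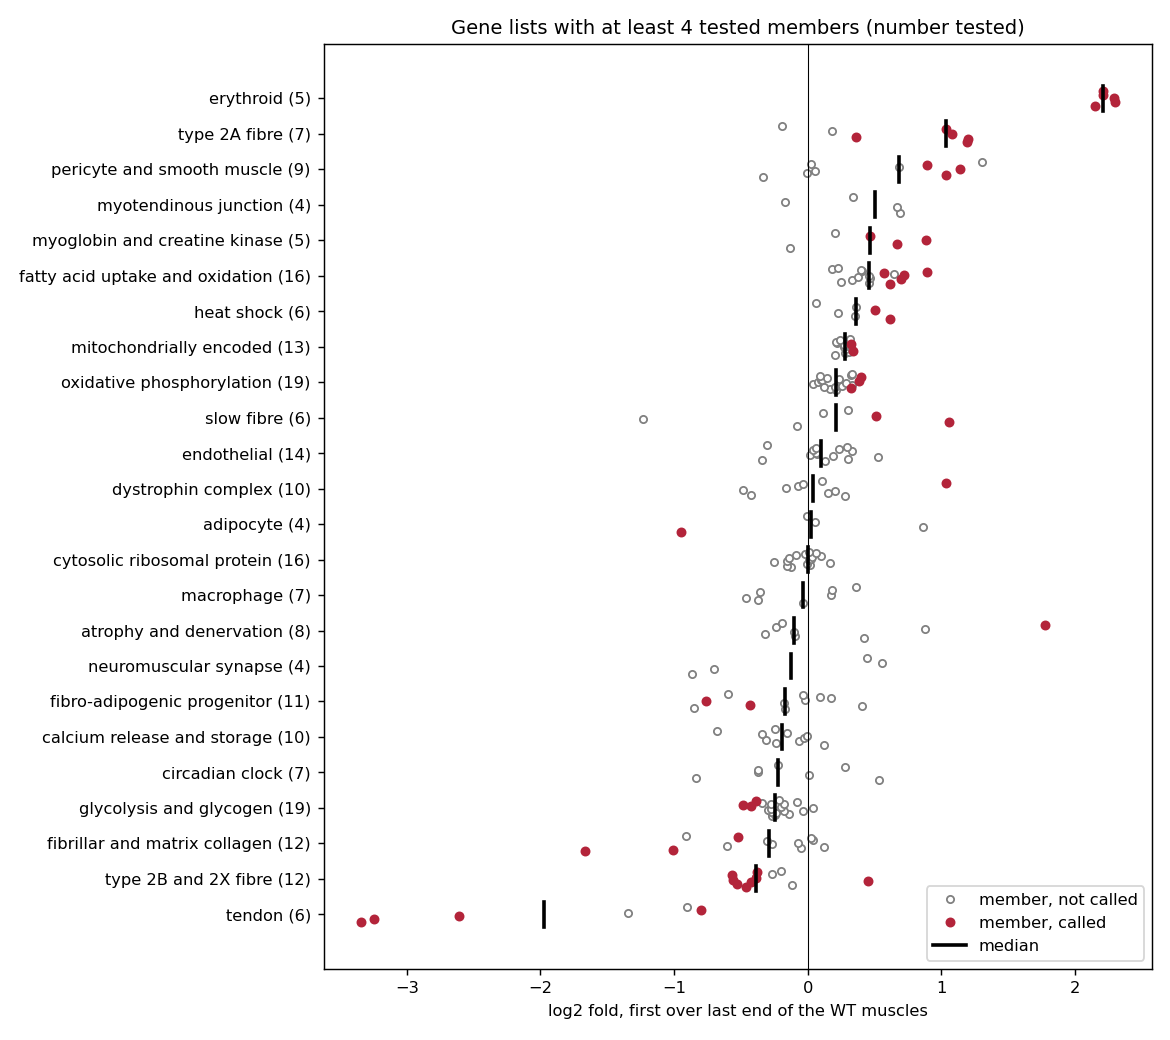
Log2 fold, first over last end of WT sections, of each tested member of the gene lists with at least 4 tested members; filled points are called, open points are not, and black bars are list medians. Erythroid genes (median 2.21) and type 2A fibre genes (1.03) lie to the right of 0, and tendon genes (-1.98) lie to the left.

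Across all called genes, a steady slope along the muscle was uncommon. The level changed in 1 direction at every step over the 5 stretches of both WT muscles in 22 of the 159 called genes, against 29 of the 5824 genes tested. The patterns of Actc1, Mss51, Mbp and Col1a1 given above are examples of the others.

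The same ends were then set against those of the Ctr muscles, which are other muscles of the series counted with another annotation. Of the 158 genes called in WT that had a value in Ctr, 151 had the same sign in the Ctr fit and 145 had it in both Ctr muscles, against 59.8% and 37.9% of the 5816 tested genes with a value. In the fit over 7 muscles, 11 of 9716 genes (0.113%) were called between the ends of Ctr, 9 higher at the first end (0.0926%) and 2 lower (0.0206%). Of the 11, 8 had been tested in WT, and all 8 were called there with the same sign: Actc1, Tmem100, Mss51, Ldhb, Mbp, Lpl, Hbb-bt and Hbb-bs. The other 3, Tent5c, Pi16 and Sfrp5, had not passed the filter on low counts in WT.

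Actc1 had 266 and 185 CPM at the first end of Ctr replicates 1 and 2, against 52.6 and 43.0 CPM at the last, a log2 difference of 2.23 ± 0.28 (adjusted p = 0.00133). Mss51 had 20.8 and 21.0 CPM at the first end of Ctr against 76.9 and 57.3 CPM at the last, a log2 difference of -1.69 ± 0.26 (adjusted p = 0.00775). Lpl had 2342 and 1941 CPM at the first end of Ctr against 1006 and 916 CPM at the last, a log2 difference of 1.15 ± 0.21 (adjusted p = 0.0325). For these 3 genes, picked from those called in Ctr, the ends of Ctr did not overlap. The share of all tested genes without overlap is not given for Ctr, and was 36.5% in WT. Myh2 had 137 and 243 CPM at the first end of Ctr against 64.2 and 62.1 CPM at the last and did not pass (log2 difference 1.53 ± 0.31, adjusted p = 0.0614), and Hba-a1 ran from 4797 to 29979 CPM between the 2 first ends.

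The difference between WT and Ctr was tested directly, as the WT first minus last difference less that of Ctr. It was called for 0 of 9716 genes (0%) by edgeR and 0 by DESeq2, with 249 genes at an unadjusted p below 0.05 in edgeR. With WT and Ctr muscles alone in the fit, 2 genes were called, the metallothioneins Mt1 and Mt2. For Actc1 the WT minus Ctr difference was 0.45, with an approximate 95% interval from -0.36 to 1.25, and for Myh2 it was -0.43, from -1.28 to 0.41. For Col1a1 it was -1.03, from -1.90 to -0.16, where WT had a log2 difference of -1.66 and Ctr one of -0.63, and its adjusted p was 1. Chad had 0.330 and 3.09 CPM at the first end of Ctr against 1.48 and 10.2 CPM at the last, a log2 difference of -1.79 ± 1.34 in Ctr that did not pass (adjusted p = 1), where WT had -3.41 ± 0.85 in the same fit. The WT minus Ctr difference of Chad was -1.63, with an interval from -5.29 to 2.04. Fmod had a Ctr log2 difference of -1.39 ± 0.74 and Thbs4 one of -0.76 ± 0.34, and neither passed (adjusted p = 1 for each). Intervals of this width do not show that the 2 groups are alike.

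**Figure D4:**
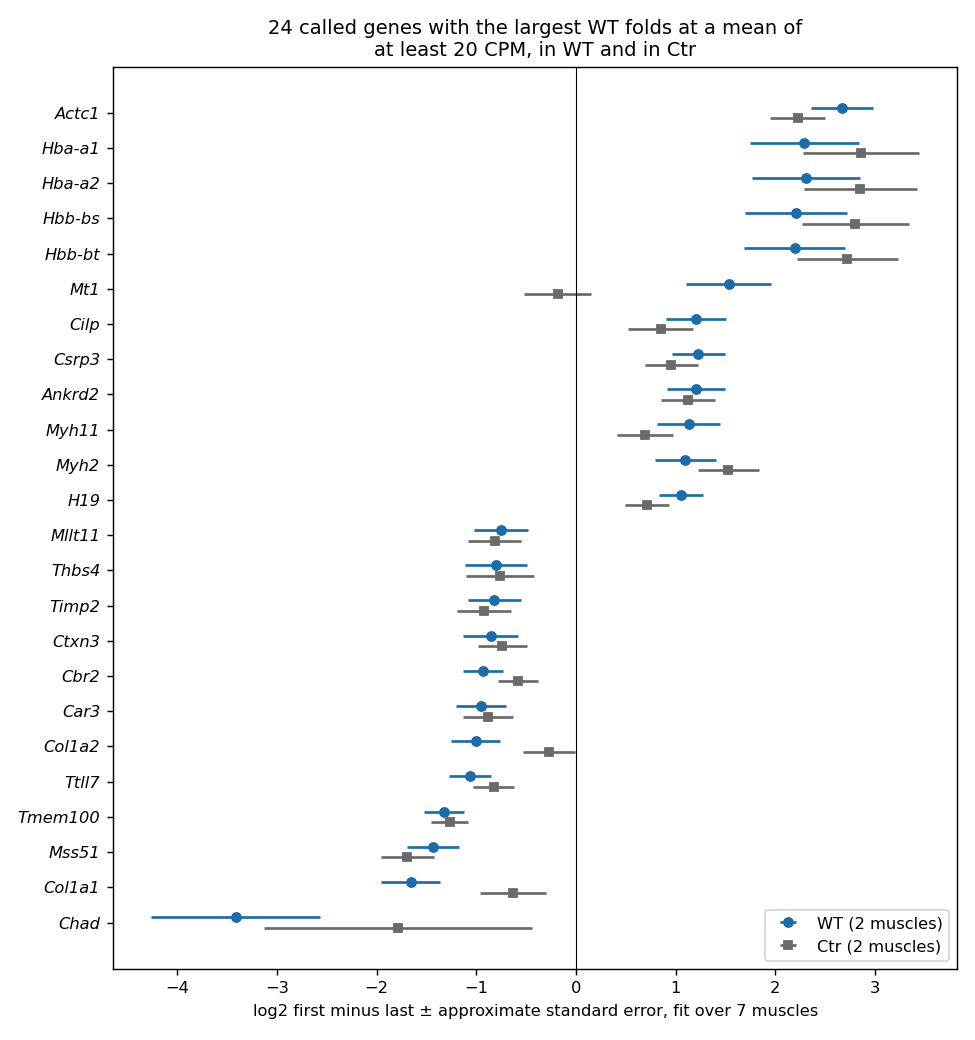
Log2 first minus last difference with approximate standard error of the 24 called genes that the naming rule takes for the largest WT folds (12 per direction, averaging at least 20 CPM), from the fit over 7 muscles, in WT (circles) and in Ctr (squares). The 2 groups lie on the same side of 0 for every gene shown except Mt1, and Chad, Col1a1 and Col1a2 are among the genes closer to 0 in Ctr.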

How the data were processed

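RNA from single cryosections of tibialis anterior was counted per gene, 1 table per muscle. The deposited values are expected counts: per the file headers, featureCounts 2.0.1 assigned reads to exons by gene name with multi-mapped and multi-overlapping reads divided into fractions, on 1 strand, with GRCm38 Ensembl release 102 for WT plus spike-in and EGFP sequences. Per the submitters' processing notes, reads were aligned with STAR 2.7.7a. Per the labels' protocols, read 2 carries an 8-base molecular identifier, and the header names hold the word dedup2, which the labels do not describe.

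From these counts, the kept sections of an end were summed within a muscle, and the sums were then rounded to integers before any fit. The WT comparison used edgeR 4.0.16 in R 4.3.3 on 4 sums: filterByExpr, TMM scaling, a muscle term and an end term, quasi-likelihood F tests, and Benjamini-Hochberg adjustment over 5824 genes. The pairing of ends is the muscle itself. The comparison with Ctr used 14 sums of 7 muscles over 53083 genes shared by the tables, with an end term per group. The ± after a log2 value is the size of that value over the square root of its F statistic, which approximates its standard error. DESeq2 1.42.0, other scalings, filters, lengths of an end and section minimums were tried. The script was checked on simulated counts.

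The naming rule took, for each direction, the 12 called genes of largest fold that averaged 20 CPM or more and had 1 sign in both muscles, leaving out predicted, pseudogene and mitochondrial names, and up to 3 members of each of 33 lists, called ones first. Members of lists beyond these are given by count or as examples, and genes outside the rule are said to be so where they are named or were chosen after values were seen (Alas2, Acadl, Hadhb and Nmrk2 among them). The members and lists were chosen with earlier results of these data known. Some of the list genes named were picked to show a list's spread. Since the labels name no animals, the p-values and ± values cannot be said to cover a spread between animals. They rest mostly on a spread shared over genes, which may be technical, and little on how a gene differed between the muscles. Totals per sum of 1614671 to 3045875 counts limit precision for genes at a few CPM. Promoters come from RefSeq (GRCm38.p6), which held 70 of 91 named genes. A gene that the naming rule selects is not reported here.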

Additional observations from a re-analysis of the deposited data

Results flagged for a closer look

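EGFP, a sequence in the WT annotation that enters no comparison, gave 33 counts over the kept sections of WT replicate 1 and 15 counts over those of WT replicate 2. These counts are above the limit of 3 that a count of 0 allows. By end, the first ends held 1 and 2 counts and the last ends 7 and 3. The labels do not mention EGFP.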

How the results depend on the processing

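The count of 159 called genes depended on the setting. It was 35 with ends of 10% of the sections, 243 with ends of 25%, 256 without the outermost 3 sections, 92 with sections of at least 50% of the median total, 55 with DESeq2 (405 genes with an adjusted p), 68 without Ibsp-rich sections (chosen after seeing the data) and 4 with all 7 muscles in the fit. Without the replicate block it was 48, so the pairing of ends by muscle raised the count. Leaving out 1 WT replicate was possible only in the fit over all muscles, and gave 0 to 1 there. It stayed within 1.5 times with library totals, no filter, thinned sections, no mitochondrial genes, no globin genes and all 5 stretches (114 to 192). Of the 67 named called genes, 63 lost their call with all 7 muscles in the fit, 66 without WT replicate 1 and 67 without WT replicate 2 in that fit, 34 without the replicate block, 39 of 64 with ends of 10% and 6 of 33 with DESeq2. Further, 21 lost their call without Ibsp-rich sections (Timp2, Mllt11, Dcn, Pygm and Phka1 among them), 17 with the 50% minimum, 15 with thinned sections, 4 with ends of 25% and 3 without the outermost sections. Library totals turned the split from 57.86% to 28.95% higher at the first end. In each of these 16 settings every called gene with a value kept its sign, a direction that overlapping sums share. The WT minus Ctr count of 0 was 2 with WT and Ctr muscles alone, and 0 in the other alternatives. Depth limits genes at a few CPM, such as Chad, whose log2 fold ran from -4.94 to -2.75.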

Other observations

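Sections outside the kept range were shallow. Before the first kept section, 4 sections of WT replicate 1 and 6 of WT replicate 2 held 72853 and 55236 counts, and after the last, 8 and 6 sections held 215911 and 29286 counts. Hba-a1 stood at 7611 and 8020 CPM (unscaled, as are the other CPM of these sections) before the first kept section, against 1003 and 461 CPM after the last. Col1a1 stood at 54.9 and 127 CPM before it, from 4 and 7 counts, against 303 and 137 CPM after the last, from 65.3 and 4 counts. Actc1 had 1 count before the first kept section in each muscle and 22 and 0 counts after the last. Mss51 stood at 54.9 and 199 CPM before the first kept section, from 4 and 11 counts. After the last it stood at 64.8 and 137 CPM, from 14 and 4 counts. Chad had 0 and 4 counts before the first kept section and 4 and 1 after the last. In WT replicate 2 both genes were thus higher before the kept range than after it, at few counts. These sections enter no comparison.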
